A study of Paxillus involutus with 18 samples.

Results

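Mycelium of *Pa. involutus* held in a cold-water extract of maize compost (MC) was compared with mycelium kept in mineral nutrient medium (MMN). The members were taken by array title: the 3 MC arrays and the 3 MMN arrays of the same slide, 6 of the 18 NimbleGen arrays of the series, each with 12214 isotigs, the assembled transcripts of the fungus. All 12214 isotigs were tested and none was filtered out. All arrays hold RNA of wild-type strain ATCC 200175, grown axenically on glass beads for 9 days in MMN, starved of N for 24 h and then incubated for 7 days in the medium under test. Both media held glucose. The MC extract had been passed through a 0.2 µm filter and an ultrafilter with a cut-off of 10 kDa, so the mycelium met only large dissolved compounds of the compost, and MMN holds glucose and ammonium without organic matter. The groups used beside these 2 were CMC (carboxy methyl cellulose, on the slide of MC), MH (the same compost extracted with hot water) and FH (forest litter extracted with hot water), each with 3 arrays. MH and FH lay on the other slide with 3 MMN arrays of their own. A single strain limits what the groups stand for, and the labels call the arrays of a group biological replicates. The free-text description of MC replicate 3 names MH, whereas its title, source and medium name MC. Over all isotigs this array lay at a root mean square distance of 0.127 from the mean of the other MC arrays, and of 0.311 from the mean of the MH arrays of the other slide, on the log2 scale. The 2 other MC arrays lay at 0.140 and 0.121 from the rest of their group, so MC replicate 3 did not stand apart within MC. From the mean of the MH arrays these 2 lay at 0.339 and 0.323, so replicate 3 was the MC array nearest to MH. MC replicate 3 was kept as MC, with the counts also given without it.

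Ectomycorrhizal fungi such as *Pa. involutus* live on sugar from tree roots and reach N that is bound in soil organic matter. Phenolic compounds and polysaccharides of that material can be oxidised by enzymes such as laccases, tyrosinases and peroxygenases. They can also be attacked by hydroxyl radicals, which the Fenton reaction makes from ferrous iron and hydrogen peroxide, so reductases, iron carriers and peroxide-forming oxidases belong to the same chemistry.

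On MC 343 isotigs were higher and 102 lower than on MMN, which is 2.81% and 0.835% of the 12214 isotigs tested and 3.64% in either direction. An isotig was called where its adjusted p (limma, Benjamini-Hochberg over all isotigs) was under 0.01 and its change was over 2-fold. The base of the logarithm is not stated with the values, which were read as log2. As natural logarithms, 64.2% to 65.7% of the values on each MC or MMN array would exceed a 16-bit scanner range. Log2 was therefore kept, and a reading as natural logarithms, which would give 708 higher and 227 lower, is shown only as an alternative. Without the condition on the size of the change 2570 isotigs (21.0%) were higher and 3461 (28.3%) lower. The calls past 2-fold were thus more often upward and the small differences more often downward, with a median change of −0.07 on the log2 scale over all isotigs. Changes past 4-fold were seen for 33 isotigs that rose and 20 that fell, and changes past 8-fold for 6 that rose and 3 that fell. Without MC replicate 3, the array with the divergent description, 315 isotigs were called higher and 102 lower.

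The called isotigs had no overlap between the groups, which follows largely from calling them past 2-fold on the same 6 arrays. In all 343 called higher the 3 MC arrays lay above the 3 MMN arrays, and in all 102 called lower they lay below them, against 26.3% of all isotigs with every MC array above and 40.2% with every MC array below. Isotigs called higher had MC means of 9.55 to 14.41 (median 12.70) and MMN means of 8.53 to 13.12 (median 11.24), on the log2 scale of the deposited values. Isotigs called lower had MC means of 9.62 to 13.69 (median 11.49) and MMN means of 10.83 to 14.72 (median 13.07). No call was made among the isotigs near the background, although 633 isotigs on MC and 620 on MMN lay below the random control probes or less than 1 log2 unit above them. Among the 10% of isotigs with the highest mean over the 6 arrays 5.73% rose and 2.70% fell, and among the 10% with the lowest mean 0.25% rose and 0.00% fell. By the MMN mean alone, 1.06% rose and 5.73% fell among the highest 10%, and 1.72% rose and 0.00% fell among the lowest 10%. The shares thus depended on which arrays set the order.

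**Figure D1:**
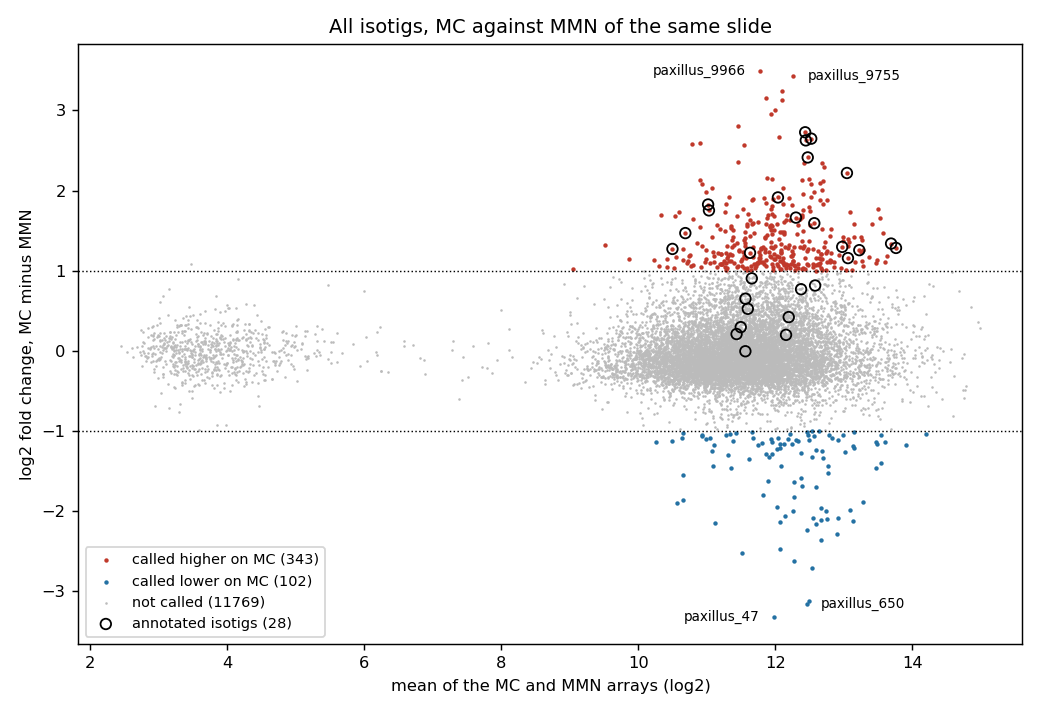
Change of each of the 12214 isotigs on MC against MMN (log2 fold change, y axis) by its mean over the 6 arrays (log2, x axis). Red points are the 343 isotigs called higher, blue points the 102 called lower, grey points the rest and black rings the 28 annotated isotigs. The dotted lines mark 2-fold. The group of dim isotigs at the left holds no call.

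The largest changes belonged to isotigs that carry no name here. The values of paxillus_9966 were 13.48, 13.52 and 13.57 on the MC arrays, against 10.07, 10.08 and 9.96 on the MMN arrays (log2 fold change 3.49, SE 0.18, adjusted p = 3.9e-11). For paxillus_9755 the MC arrays read 13.89, 13.89 and 14.15 and the MMN arrays 10.61, 10.50 and 10.53 (log2 fold change 3.43, adjusted p = 2.8e-11). These were the 2 largest rises of the comparison, and the gap between the media was many times the spread within either. The deepest falls were those of paxillus_47, with 10.32, 10.33 and 10.31 on MC against 13.46, 13.75 and 13.71 on MMN (log2 fold change −3.32, adjusted p = 3.7e-14), and of paxillus_650, with 10.95, 10.93 and 10.76 on MC against 13.99, 14.07 and 14.05 on MMN (log2 fold change −3.16, adjusted p = 1.8e-14). These 4 isotigs were picked for their rank in this comparison, so their values are a description.

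Of 28 isotigs with an annotated role in organic matter degradation, 18 rose on MC, none fell and 10 were not called. By the same rule 2.81% of the 12214 isotigs rose and 0.835% fell. The median log2 fold change was −0.07 for the whole array and 1.28 for the annotated isotigs, which ranged from −0.01 to 2.73. The study had chosen them with these same samples, so the direction of the list is not independent evidence. With the thresholds used here 23 of the 28 were called higher on at least 1 of MC, MH and FH, and the others were paxillus_3450, paxillus_3452, paxillus_2900, paxillus_6835 and paxillus_3047. Read as natural logarithms, 27 were, without paxillus_2900, and the count on MC was 21 in place of 18. By role, 10 of 15 isotigs of aromatic oxidation rose, both of phenylalanine ammonia lyase, 3 of 5 of iron reduction and uptake, both of peroxide formation, neither of citrate synthesis and 1 of 2 of the plant cell wall. These counts are of isotigs, not genes. The laccases, monooxygenases, ammonia lyases, ferric reductases and glyoxal oxidases each include a pair of variants of the same gene. For 26 of the 28 the 3 MC arrays lay above the 3 MMN arrays, against 26.3% of all isotigs. The exceptions were the laccase paxillus_3452 and the iron permease paxillus_2900.

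**Figure D2:**
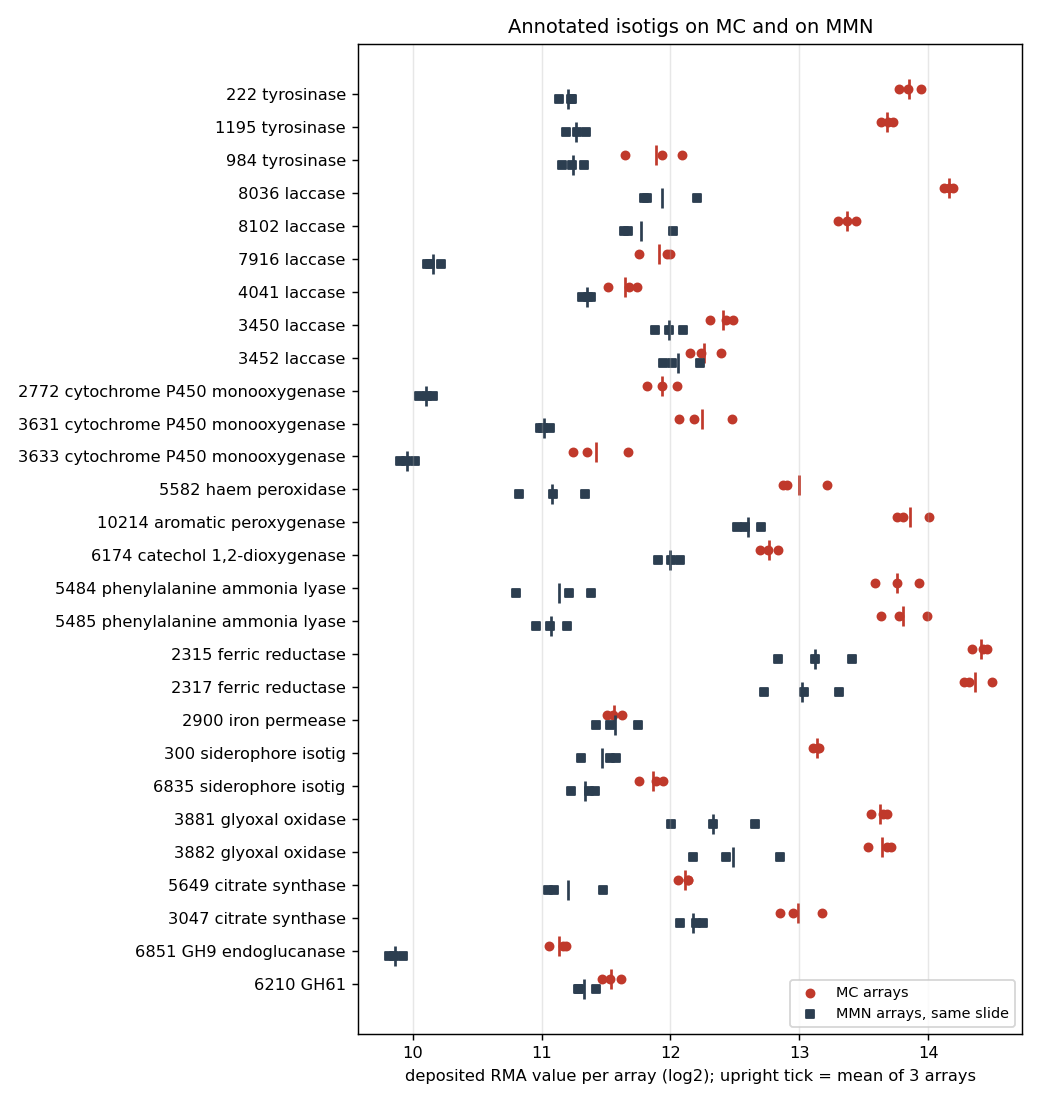
Deposited value (log2, x axis) of the 28 annotated isotigs on the 3 MC arrays (red circles) and the 3 MMN arrays of the same slide (dark squares), with an upright tick at each mean. The groups overlap only in the rows of the laccase paxillus_3452 and the iron permease paxillus_2900.

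Tyrosinases oxidise phenols to quinones and take part in melanin synthesis in fungi, and 2 of 3 rose. The tyrosinase paxillus_222 read 13.84, 13.77 and 13.94 on MC against 11.24, 11.23 and 11.14 on MMN (log2 fold change 2.65, SE 0.07, adjusted p = 7.7e-15). The tyrosinase paxillus_1195 read 13.69, 13.72 and 13.63 on MC against 11.35, 11.27 and 11.19 on MMN (log2 fold change 2.41, SE 0.11, adjusted p = 6.3e-12). In both, every MC array was more than 2 log2 units above every MMN array. The third, paxillus_984, read 11.65, 12.09 and 11.93 on MC against 11.33, 11.16 and 11.24 on MMN, without overlap but short of 2-fold (log2 fold change 0.65, adjusted p = 5.1e-05).

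Laccases are multicopper oxidases that take single electrons from phenols and pass them to oxygen, and 3 of 6 rose. The laccase paxillus_8036 had 14.19, 14.12 and 14.16 on MC against 11.82, 11.79 and 12.20 on MMN (log2 fold change 2.22, SE 0.12, adjusted p = 5.2e-11). Values of paxillus_7916 were 11.76, 11.97 and 12.00 on MC against 10.13, 10.22 and 10.11 on MMN (log2 fold change 1.75, adjusted p = 2.5e-13). Values of paxillus_8102 were 13.30, 13.44 and 13.37 on MC against 11.67, 11.64 and 12.02 on MMN (log2 fold change 1.59, adjusted p = 9.4e-11). MMN replicate 3 was the highest control for paxillus_8036 and paxillus_8102, yet lay more than 1 log2 unit under every MC array. The other laccases differed little: the log2 fold change was 0.29 for paxillus_4041 (adjusted p = 0.0013), 0.42 for paxillus_3450 (adjusted p = 0.0033) and 0.20 for paxillus_3452 (adjusted p = 0.10). The last 2 are isotigs of the same isogroup, that is, variants of the same gene. The MC values of paxillus_3452 were 12.24, 12.15 and 12.39 and its MMN values 12.23, 12.01 and 11.94, so the groups overlapped at MMN replicate 1.

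Cytochrome P450 monooxygenases insert oxygen into hydrophobic and aromatic compounds, and all 3 isotigs rose. The monooxygenase paxillus_2772 read 11.81, 11.93 and 12.05 on MC against 10.12, 10.05 and 10.16 on MMN (log2 fold change 1.83, adjusted p = 4.1e-13). The variants paxillus_3631 and paxillus_3633 of another gene read 12.07, 12.18 and 12.48, and 11.24, 11.35 and 11.67, on MC. On MMN they read 10.99, 11.07 and 11.01, and 10.02, 9.90 and 9.95 (log2 fold changes 1.22 and 1.47, adjusted p = 1.8e-08 and 2.8e-09). MC replicate 3 was the highest array for all 3 isotigs.

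The remaining aromatic enzymes were single isotigs. The haem peroxidase paxillus_5582, of a class that oxidises substrates with hydrogen peroxide, read 12.87, 12.90 and 13.21 on MC against 11.09, 10.82 and 11.34 on MMN (log2 fold change 1.91, adjusted p = 1.4e-10). The aromatic peroxygenase paxillus_10214, an enzyme that transfers oxygen from peroxide to aromatic rings, read 13.80, 13.76 and 14.01 on MC against 12.58, 12.51 and 12.71 on MMN (log2 fold change 1.26, adjusted p = 1.2e-09). Both rose with every MC array above every MMN array. The catechol 1,2-dioxygenase paxillus_6174, a ring-cleaving enzyme, was called only under the natural-log reading, at 12.75, 12.70 and 12.83 on MC against 12.08, 11.90 and 12.01 on MMN (log2 fold change 0.77, adjusted p = 1.5e-07).

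Phenylalanine ammonia lyase, which releases ammonium from phenylalanine to give cinnamate, had a pair of isotigs of the same isogroup, and both rose. Of these, paxillus_5485 read 13.64, 13.78 and 13.99 on MC against 10.96, 11.06 and 11.20 on MMN (log2 fold change 2.73, SE 0.10, adjusted p = 3.6e-13). Its partner paxillus_5484 read 13.59, 13.76 and 13.93 on MC against 11.21, 10.80 and 11.39 on MMN (log2 fold change 2.63, SE 0.13, adjusted p = 1.6e-11). The MC arrays had the same order in both, with replicate 3 highest. The change of paxillus_5485 was the largest of the 28.

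Ferric reductases at the cell surface reduce ferric to ferrous iron, and both isotigs of their pair, variants of the same gene, rose. The ferric reductase paxillus_2315 read 14.42, 14.34 and 14.45 on MC against 13.12, 12.84 and 13.41 on MMN (log2 fold change 1.28, adjusted p = 6.9e-08). Its partner paxillus_2317 read 14.50, 14.27 and 14.31 on MC against 13.04, 12.73 and 13.30 on MMN (log2 fold change 1.34, adjusted p = 4.0e-08). The MMN arrays spread more widely than the MC arrays here, with replicate 2 lowest and replicate 3 highest.

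Siderophores are small iron chelators that fungi secrete to take up ferric iron. The siderophore isotig paxillus_300 rose, with 13.15, 13.11 and 13.14 on MC against 11.53, 11.31 and 11.58 on MMN (log2 fold change 1.66, adjusted p = 1.4e-11), and paxillus_6835 was not called (log2 fold change 0.52, adjusted p = 3.6e-06). The iron permease paxillus_2900, of the high-affinity uptake system known from yeast, read 11.51, 11.62 and 11.55 on MC against 11.53, 11.42 and 11.75 on MMN. The groups overlapped, and the difference of −0.01 had a 95% interval of −0.15 to 0.14 (adjusted p = 0.94), so a 2-fold change lay outside the interval.

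Glyoxal oxidase forms hydrogen peroxide while it oxidises aldehydes, and both isotigs of the pair, variants of the same gene, rose. The glyoxal oxidase paxillus_3881 read 13.68, 13.55 and 13.65 on MC against 12.33, 12.01 and 12.65 on MMN (log2 fold change 1.30, adjusted p = 1.3e-07). Its partner paxillus_3882 read 13.71, 13.68 and 13.53 on MC against 12.43, 12.17 and 12.85 on MMN (log2 fold change 1.16, adjusted p = 4.1e-06), with a 95% interval of 0.84 to 1.47 that reached below 2-fold. The MMN spread was the wider in both.

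Citrate synthases, which make citrate from oxaloacetate and acetyl-CoA, were not called on the log2 reading, and both would be if the values were natural logarithms. For paxillus_5649 the values were 12.06, 12.13 and 12.14 on MC against 11.09, 11.05 and 11.47 on MMN (log2 fold change 0.90, adjusted p = 2.9e-06, 95% interval 0.66 to 1.14), and without MMN replicate 3 the log2 fold change was 1.04 and the isotig was called. For paxillus_3047 the values were 12.85, 12.95 and 13.17 on MC against 12.20, 12.08 and 12.26 on MMN (log2 fold change 0.81, adjusted p = 1.4e-08). Neither isotig overlapped between the media. Among the enzymes of the plant cell wall, the endoglucanase of family GH9, paxillus_6851, rose with 11.06, 11.16 and 11.19 on MC against 9.85, 9.81 and 9.93 on MMN (log2 fold change 1.27, adjusted p = 1.2e-10). The isotig of GH61, a family of copper enzymes that cleave cellulose by oxidation, was paxillus_6210, with 11.62, 11.53 and 11.47 on MC against 11.29, 11.28 and 11.42 on MMN. Its groups lay next to each other without overlap and the change was small (log2 fold change 0.21, adjusted p = 0.017).

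CMC, a soluble cellulose derivative, was the other medium on the slide of MC, and a direct comparison with it does not use the MMN arrays. On MC 100 isotigs were higher and 38 lower than on CMC, 0.819% and 0.311% of those tested and 1.13% in either direction. Of the annotated isotigs 8 of 28 were higher on MC and none lower, with a median difference of 0.43 against −0.01 over all isotigs. At the adjusted p alone 18 were higher and 4 lower, against 8.05% and 8.88% of all isotigs. The study had chosen the list with these same MC arrays among others, so its lean above CMC is not independent evidence. The 8 were 2 tyrosinases, 1 laccase, the pair of variants of the cytochrome P450 monooxygenase, the aromatic peroxygenase and both isotigs of phenylalanine ammonia lyase.

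Within these 8 the CMC arrays held different places. The CMC values of the tyrosinase paxillus_1195 were 11.41, 11.52 and 11.68, so its difference of 2.14 (adjusted p = 1.1e-10) was nearly that against MMN. The tyrosinase paxillus_222 was at 12.78, 12.50 and 12.76 on CMC, between its MC and MMN values, and differed by 1.17 (adjusted p = 4.6e-10). The laccase paxillus_8036 also lay between, at 12.62, 12.87 and 12.67 on CMC (difference 1.44, adjusted p = 4.9e-08). The aromatic peroxygenase paxillus_10214, at 12.55, 12.70 and 12.65, and the monooxygenase paxillus_3631, at 11.03, 11.04 and 11.09, had CMC values in or next to the range of their MMN arrays. Their differences between MC and CMC were 1.22 (adjusted p = 5.4e-09) and 1.19 (adjusted p = 7.8e-08), and that of paxillus_3633 was 1.35 (adjusted p = 2.6e-08). For phenylalanine ammonia lyase, whose CMC values were intermediate, the differences were 1.32 for paxillus_5484 (adjusted p = 4.3e-07) and 1.36 for paxillus_5485 (adjusted p = 9.4e-09).

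Of the 10 other annotated isotigs that rose on MC against MMN, 4 did not pass the adjusted p against CMC. The difference was 0.29 for the haem peroxidase paxillus_5582 (95% interval 0.05 to 0.52, adjusted p = 0.068), 0.06 for the laccase paxillus_8102 (95% interval −0.13 to 0.25, adjusted p = 0.68), 0.03 for the glyoxal oxidase paxillus_3881 (95% interval −0.24 to 0.29, adjusted p = 0.92) and 0.04 for paxillus_3882 (95% interval −0.28 to 0.36, adjusted p = 0.89). These intervals exclude a 2-fold difference in either direction. The 4 isotigs lower on MC at the adjusted p alone were the iron permease paxillus_2900 (11.51, 11.62 and 11.55 on MC, 12.28, 12.29 and 12.30 on CMC, difference −0.73, adjusted p = 2.2e-07), the GH61 isotig paxillus_6210 (difference −0.59, adjusted p = 4.7e-06), the citrate synthase paxillus_5649 (difference −0.56, adjusted p = 0.0012) and the laccase paxillus_4041 (difference −0.45, adjusted p = 6.5e-05). None of the 4 reached 2-fold, and none had been called on MC against MMN. Of the unnamed isotigs, paxillus_9966 was at 10.82, 11.39 and 10.70 on CMC and paxillus_9755 at 10.90, 11.47 and 10.76, with differences of 2.55 (adjusted p = 7.8e-09) and 2.93 (adjusted p = 6.9e-10). CMC replicate 2 was the highest CMC array in both, and all CMC arrays lay more than 2 log2 units below the MC arrays. Both isotigs had been picked for their rise on these MC arrays. The 2 falls did not pass the test between MC and CMC, with differences of −0.04 for paxillus_47 (95% interval −0.26 to 0.18, adjusted p = 0.83) and −0.19 for paxillus_650 (95% interval −0.38 to −0.0013, adjusted p = 0.14). Before adjustment over all isotigs the interval of paxillus_650 thus lay just below 0.

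**Figure D3:**
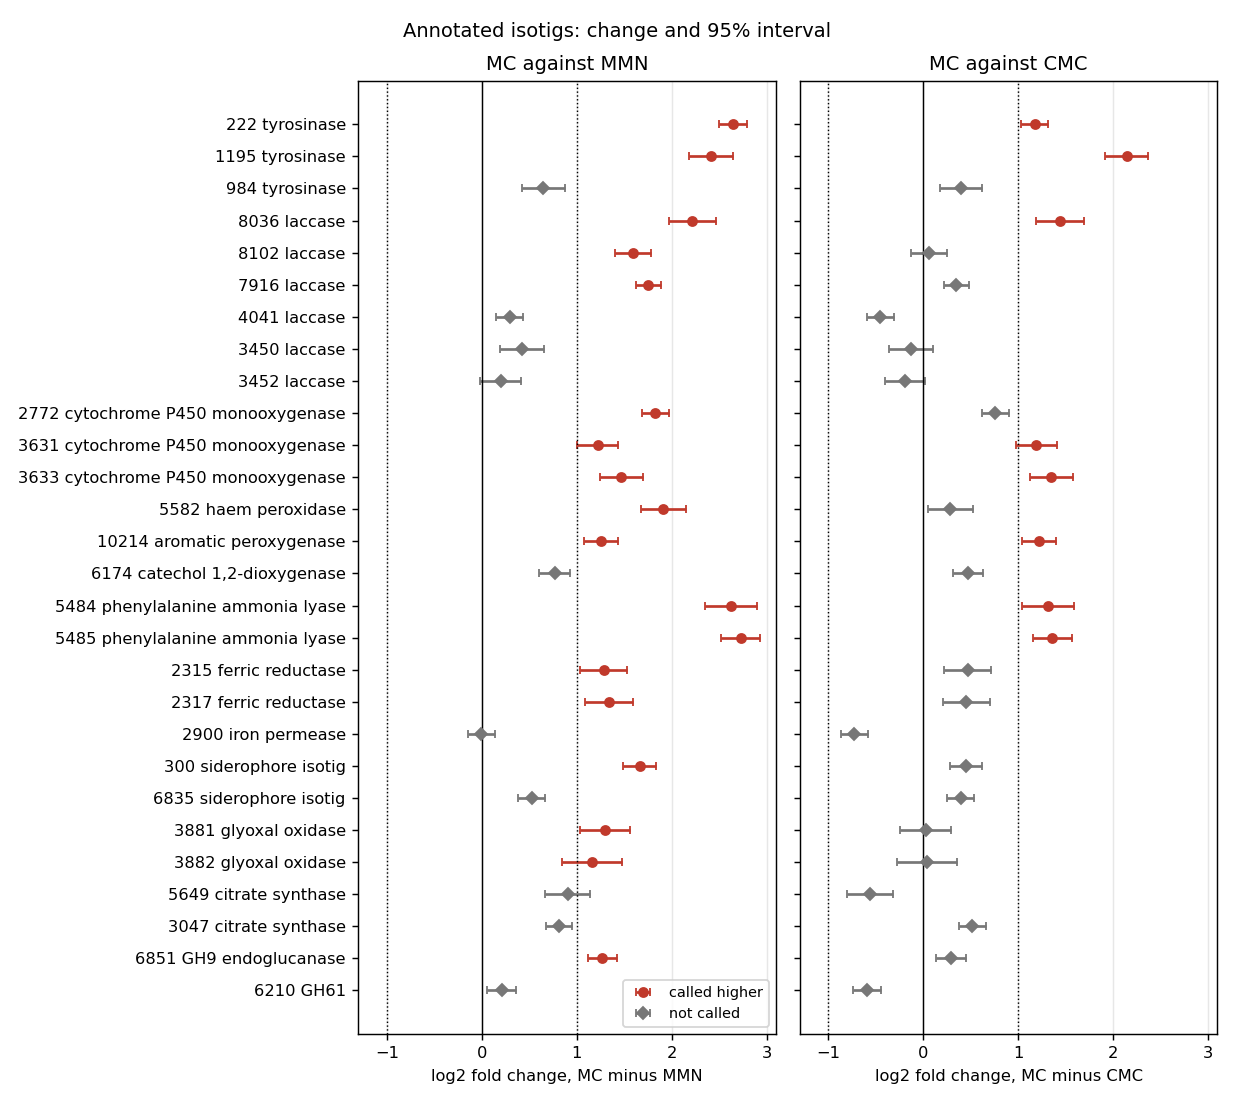
Log2 fold change (x axis) of the 28 annotated isotigs on MC against MMN (left) and on MC against CMC (right), with 95% intervals from the limma fit. Red circles were called higher, grey diamonds were not called, and the dotted lines mark 2-fold in each direction. On the left 18 points are red and on the right 8, and both panels share the MC arrays.

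MH is the same compost extracted with hot water, and was compared through the changes against the MMN arrays of each slide. The MC change was higher than the MH change for 34 isotigs (0.278%) and lower for 36 (0.295%), 0.573% in either direction. Of the annotated isotigs none was called higher and 1 lower. At the adjusted p alone, 6 had the higher change on MC (11.1% of all isotigs), 4 the lower (10.2% of all isotigs) and 18 were not past it, and their median difference was 0.06 against 0.01 over all isotigs. The call was the GH61 isotig paxillus_6210, with a log2 change of 0.21 on MC and of 1.21 on MH (difference −1.01, 95% interval −1.22 to −0.80, adjusted p = 2.8e-06). This call sat at the threshold, and was lost without MC replicate 3 (−0.97), without MMN replicate 3 (−0.96) and after a repeated quantile normalization (−0.95). In the other direction, the variants of the monooxygenase and the aromatic peroxygenase had the highest differences, at 0.87 for paxillus_3633, 0.86 for paxillus_3631 (adjusted p = 0.00037) and 0.75 for paxillus_10214 (adjusted p = 0.00025), all under 2-fold. Against MMN these isotigs were called higher on MC but on neither MH nor FH. Their rise on MC, by which they could enter the list, favours a positive difference here. The tyrosinase paxillus_1195 differed by 0.02 (95% interval −0.30 to 0.35) and the lyase paxillus_5485 by 0.14 (95% interval −0.16 to 0.44). The unnamed paxillus_9755 rose by 3.43 on MC and by 1.84 on MH (difference 1.59, adjusted p = 0.00022). It had been picked for its rise on MC, which enters this difference and favours a positive value.

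Against FH, the litter extract, the MC change was higher for 96 isotigs (0.786%) and lower for 75 (0.614%), 1.40% in either direction, and among the annotated isotigs it was higher for 5 of 28 and lower for none. At the adjusted p alone 16 had the higher change on MC (6.04% of all isotigs), 3 the lower (6.78% of all isotigs) and 9 were not past it, with a median difference of 0.54 against −0.01 over all isotigs. The study had chosen the list with these same MC arrays among others, so its lean above FH is not independent evidence. All 3 monooxygenase isotigs were among the 5. The change of paxillus_2772 was 1.83 on MC and 0.19 on FH (difference 1.64, adjusted p = 1.2e-09). That of paxillus_3633 was 1.47 on MC and 0.20 on FH (difference 1.27), and that of paxillus_3631 was 1.22 on MC and 0.15 on FH (difference 1.07, adjusted p = 3.4e-05). The other calls were the lyase paxillus_5485 (difference 1.18, adjusted p = 7.9e-06) and the aromatic peroxygenase paxillus_10214 (difference 1.01, adjusted p = 8.7e-06). Against MMN, paxillus_3631, paxillus_3633 and paxillus_10214 were called higher on MC but on neither MH nor FH. That rise on MC, by which they could enter the list, favours a positive difference. Without MC replicate 3 the calls fell to 3, since paxillus_3631 (0.95) and paxillus_10214 (0.93) dropped under 2-fold, and without MMN replicate 3 there were 8. The call of paxillus_10214 was also lost without MMN replicate 2 (0.96) and without MMN replicate 1, where it lay just under 2-fold. The differences of paxillus_9966 and paxillus_9755 were 2.15 and 2.98, and both isotigs had been picked for their rise on MC, which enters these differences. The laccase paxillus_4041 (difference −0.74) and the iron permease paxillus_2900 (difference −0.65, adjusted p = 8.8e-05) had the lower change on MC without reaching 2-fold. MC lay on another slide than MH and FH, so these differences rest on the MMN arrays of both slides, which carry the same replicate numbers. The labels do not state that same-numbered MMN arrays hold the same culture, and with the number as a random block their estimated correlation was 0.53.

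**Figure D4:**
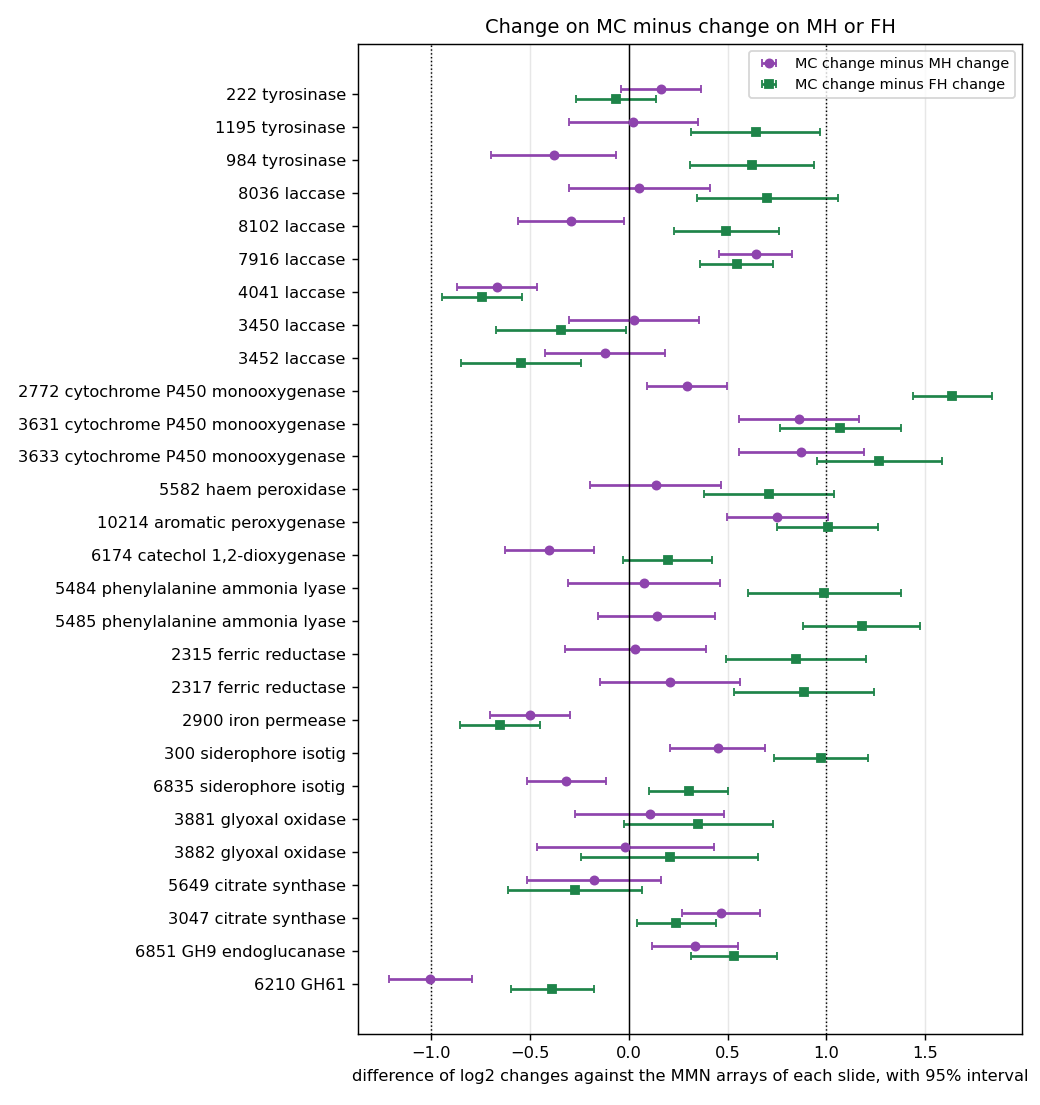
Difference (log2, x axis) between the change on MC and the change on MH (purple circles) or on FH (green squares) for the 28 annotated isotigs, each change taken against the MMN arrays of its own slide, with 95% intervals from the limma fit. Dotted lines mark 2-fold. For MH the GH61 isotig paxillus_6210 lies past 2-fold at the left, and for FH 5 isotigs lie past it at the right.

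Among themselves the MC arrays were ordered alike over many of the raised isotigs. In the 343 called higher, MC replicate 3 was the highest MC array in 69.1% and replicate 1 the lowest in 70.8%, while over all isotigs these shares were 31.2% and 35.5%. The median log2 fold change of these 343, taken for 1 MC array at a time, was 1.19, 1.29 and 1.35 for replicates 1, 2 and 3, and that of the 102 called lower was −1.28, −1.26 and −1.26. The difference between the arrays was thus in the size of the rises and was small beside them. Of the 28 annotated isotigs MC replicate 3 was highest for 17 and replicate 1 lowest for 15. On the MMN side replicate 2 was lowest for 21 and replicate 3 highest for 18. The median SD of the annotated isotigs was 0.096 on MC and 0.105 on MMN, and the MMN spread was the wider for 17 of 28. The part of these array differences in the results was not tested beyond leaving out each array.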

How the data were processed

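Total RNA of mycelium was hybridised to 1-colour NimbleGen arrays. The deposited values, read here as log2, are the output of robust multi-array average (RMA), in which the authors subtracted background, brought arrays to a common distribution and combined the probes of each isotig. Its version is not given in the sources used here. A change is therefore relative to all isotigs of the array. Array medians were 11.46 to 11.47 on MC and 11.46 on MMN, and random control probes, left out of the fit, 3.69 to 3.74 on MC and 3.70 to 3.76 on MMN. The number of arrays limits the precision. With limma 3.58.1 in R 4.3.3, 6 group means were fitted to all 18 arrays (lmFit, eBayes, 12 residual and 5.35 prior degrees of freedom). P-values were adjusted by Benjamini-Hochberg over 12214 isotigs in each comparison. The fit was tested on simulated data. Alternatives covered thresholds, arrays in the fit, blocks, control, normalization, dim isotigs, variance model and left-out arrays.

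All 28 isotigs of the study's manual annotation that were at hand by identifier were named, together with the 2 largest rises and 2 largest falls whose arrays did not overlap. The annotated families are therefore not complete. The deposited files pair no isotig with a name, so no sequence is shown. The members and lists were chosen with earlier results of these data known.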

Additional observations from a re-analysis of the deposited data

Results flagged for a closer look

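Several named isotigs were flagged because their response on MC differed from that on another medium past 2-fold, by the limma test of the difference itself (adjusted p under 0.01). Groups of 3 arrays were too small to look for single outlying arrays.

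Against CMC on the same slide, the MC values were higher by 1.17 on the log2 scale for the tyrosinase paxillus_222, 2.14 for the tyrosinase paxillus_1195, 1.44 for the laccase paxillus_8036, 1.19 and 1.35 for the cytochrome P450 monooxygenase variants paxillus_3631 and paxillus_3633, and 1.22 for the aromatic peroxygenase paxillus_10214. The differences were 1.32 and 1.36 for the phenylalanine ammonia lyase isotigs paxillus_5484 and paxillus_5485, and 2.55 and 2.93 for the unnamed isotigs paxillus_9966 and paxillus_9755. These last 2 had been picked for their rise on the same MC arrays.

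The change on MC was smaller than that on MH by a difference of −1.01 for the GH61 isotig paxillus_6210, and larger by 1.59 for paxillus_9755. It was larger than that on FH by 1.64 for the monooxygenase paxillus_2772, 1.07 for paxillus_3631, 1.27 for paxillus_3633, 1.01 for paxillus_10214, 1.18 for paxillus_5485, 2.15 for paxillus_9966 and 2.98 for paxillus_9755. The 3 comparisons share the MC arrays, so these flags are not independent of each other. The study had chosen the annotated isotigs with the MC arrays among others, so their flags above other media are not independent evidence. The rise on MC for which paxillus_9966 and paxillus_9755 had been picked enters the differences from MH and FH too.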

How the results depend on the processing

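The log base is not stated with the values. As natural logarithms, 64.2% to 65.7% of the values on each MC or MMN array would exceed a 16-bit scanner range. Under that reading, 2-fold calls would be 708 higher and 227 lower on MC against MMN, 196 and 127 against CMC, 124 and 177 for the difference from the MH change, and 193 and 212 for that from the FH change. Of the annotated isotigs 21 would be called higher against MMN (adding paxillus_6174, paxillus_5649 and paxillus_3047), and 3 in place of 0 would have the higher change on MC than on MH, and 11 in place of 5 than on FH. Leaving out each MC or MMN array in turn gave 315 to 370 higher and 101 to 110 lower on MC against MMN, with the lowest count without MC replicate 3 and the highest without MC replicate 1. It gave 93 to 108 and 38 to 41 against CMC, 31 to 43 and 27 to 45 for MH, and 84 to 107 and 70 to 80 for FH, 18 to 19 annotated isotigs called higher against MMN, and an annotated median of 1.20 to 1.38 (1.38 without MMN replicate 3). The near-zero change of paxillus_2900 ranged over left-out arrays between −0.0810 (without MMN replicate 2) and 0.0856 (without MMN replicate 3), and was 0.0919 with the mean of all 6 MMN arrays as control, an alternative chosen after seeing the data, which called 320 higher and 89 lower. The difference of paxillus_3881 from CMC ranged between −0.0023 (without MC replicate 1) and 0.0625 (without MC replicate 2). The cause was not tested. MC and MMN arrays share only a replicate number (correlations of their deviations 0.04, −0.06 and 0.22), and a replicate block gave 343 higher and 102 lower. A random block for same-numbered MMN arrays gave 343 and 102 against MMN, 34 and 38 for MH and 96 and 76 for FH. With a slide block the estimates are those of the fit used here, because only MMN lies on both slides. Among the values of single isotigs, 1656 kept direction and side of the threshold, 22 passed it, 7 fell short of it and 4 changed sign. Some settings in this tally could not change a value, such as the slide block and a second deposited copy of the same values. Differences from the MH and FH changes were counted only for isotigs past the adjusted p in the fit used here. The tally is therefore not a measure of robustness.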
